A study of Mus musculus with 4 samples.

Results

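Transcripts of the insulin-like growth factor (IGF) system were described in RNA-seq libraries of cultured mouse neural progenitors. The system was represented by 10 genes taken by symbol, which were the ligand gene *Igf1*, the receptor genes *Igf1r*, *Insr* and *Igf2r*, the receptor substrate gene *Irs2* and the binding protein genes *Igfbp2*, *Igfbp3*, *Igfbp4*, *Igfbp5* and *Igfbp6*. All 10 were found, each listed under its own symbol, among 21091 entries. All 10 also belonged to the 12449 entries whose mean reached 1 FPKM, here called the genes analysed. FPKM counts fragments per kilobase of transcript relative to all mapped fragments, so levels of different genes can be compared per length.

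The study asked which genes depend on STAT3, a transcription factor activated by cytokines and growth factors, while neural progenitors develop. Brains of C57BL/6 embryos were taken at embryonic day 11 (E11) or 14 (E14), and the dissociated cells grew as neurospheres for 3 days in serum-free medium with EGF, FGF, B27 and an insulin, transferrin and selenite supplement. *Stat3* cKO embryos carried Nestin-Cre and were homozygous for floxed *Stat3* (*Stat3* f/f). Control (CTL) embryos are labelled WT, whereas the methods on animals describe the controls as Nestin-Cre *Stat3* f/+, so it is not settled whether the CTL cells carried Cre. Cre was driven by a rat Nestin promoter and enhancer and so acts in the neural lineage, while other cells in a dissected brain can keep *Stat3*. How many embryos went into a library is not given in the sources used here. There were 4 groups, CTL and *Stat3* cKO at E11 and the same pair at E14, and each had 1 library. There is therefore no spread between replicates to set a difference against, no test was made, and each ratio compares 2 libraries.

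IGF1 and the related IGF2 are secreted growth factors that act through the receptor tyrosine kinase encoded by *Igf1r*. The insulin receptor, encoded by *Insr*, is its close relative and can also bind IGF2, and both kinases pass the signal to PI3 kinase and AKT through substrate proteins such as IRS2. The receptor encoded by *Igf2r* has no kinase and takes up IGF2 for degradation. The binding proteins are secreted, hold IGFs in the extracellular space and can restrain or prolong their action. In the embryonic brain the pathway is known for its part in progenitor growth and survival.

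Depth, the targeted gene and the makeup of the cultures bear on all values. The smallest FPKM values, which single fragments leave, placed the libraries at about 38300000 to 48400000 fragments, so that 1 fragment on a transcript of 1 kilobase was worth 0.0207 to 0.0261 FPKM. *Stat3* had 7.41 FPKM (CTL) and 6.74 (*Stat3* cKO) at E11, and 27.6 (CTL) and 9.55 (*Stat3* cKO) at E14. It was 2.89-fold lower in *Stat3* cKO at E14 and 1.10-fold lower at E11, and these values cover the whole gene, whereas Cre removes only the exons that encode the SH2 domain. They therefore do not measure the deletion itself, and the study describes this Cre as giving the knockout by E14. The 8 neural progenitor markers, *Sox2* and *Nes* among them, were above 0 in all 4 libraries, with summed levels of 1551 to 8143 FPKM. The 10 mural, meningeal and other mesenchymal markers, such as *Col3a1* and *Twist1*, summed to 1395 FPKM (CTL) and 1253 (*Stat3* cKO) at E11, and to 17.2 (CTL) and 11.3 (*Stat3* cKO) at E14, with no marker at 0. The 11 microglia markers summed to 12.5, 8.34, 1.35 and 1.30 FPKM in the same order, with *Aif1* at 0 in E14 CTL, and the 8 endothelial markers to 5.81, 5.69, 1.54 and 2.31. The E14 libraries also differed in sex-linked transcripts, namely *Ddx3y* (0.0569 FPKM in CTL, 25.1 in *Stat3* cKO) and *Xist* (13.6 and 0.0370 FPKM).

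The binding protein genes carried most of the differences described below, and the sequence at their starts is shown for the leading ones. *Igfbp3* had the largest genotype ratio of the members at E14, *Igfbp2* the highest mean level, and *Igfbp4* was level with *Igfbp2* at E11 and far below it at E14. The windows run from 250 bases before to 50 bases after the RefSeq start of transcription in GRCm38.p6, 5′ to 3′ on the gene's strand, at chr1:72824230-72824529 (plus strand) for *Igfbp2*, chr11:7213874-7214173 (minus strand) for *Igfbp3* and chr11:99040994-99041293 (plus strand) for *Igfbp4*. Capitals mark the TATA box letters TATAAA or their variant TATATA, and the GC box core GGGCGG, on either strand.
Igfbp2: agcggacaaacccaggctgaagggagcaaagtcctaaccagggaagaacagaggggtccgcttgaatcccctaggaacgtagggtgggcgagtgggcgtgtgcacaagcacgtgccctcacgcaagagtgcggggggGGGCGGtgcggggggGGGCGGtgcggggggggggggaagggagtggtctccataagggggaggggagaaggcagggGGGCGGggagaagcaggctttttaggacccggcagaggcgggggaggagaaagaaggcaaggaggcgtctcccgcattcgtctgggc
Igfbp3: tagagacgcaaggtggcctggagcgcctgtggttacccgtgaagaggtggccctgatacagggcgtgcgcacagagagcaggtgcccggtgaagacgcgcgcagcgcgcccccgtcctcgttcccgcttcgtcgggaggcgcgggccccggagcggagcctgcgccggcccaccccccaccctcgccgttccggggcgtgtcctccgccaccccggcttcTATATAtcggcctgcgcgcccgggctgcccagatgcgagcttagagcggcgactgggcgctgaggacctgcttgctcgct
Igfbp4: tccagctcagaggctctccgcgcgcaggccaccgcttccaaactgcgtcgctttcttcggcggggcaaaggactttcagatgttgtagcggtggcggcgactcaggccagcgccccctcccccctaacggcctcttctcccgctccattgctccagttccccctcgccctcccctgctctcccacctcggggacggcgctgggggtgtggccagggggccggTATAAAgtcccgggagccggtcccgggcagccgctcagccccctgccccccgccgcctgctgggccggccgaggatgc

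The start of *Igfbp3* had TATATA at position -30 from the start, and that of *Igfbp4* had TATAAA at -28, about where a TATA box usually lies. The *Igfbp2* window shown had neither, and instead GGGCGG at positions -113, -98 and -37. Of 32851 windows of the same length over all genes, 13.6% held TATAAA, 5.67% TATATA and 35.7% GGGCGG. Windows were given for 9 of the 10 members, 10 windows in all, and *Insr* had none. *Igfbp2* had a second window, at chr1:72825137-72825436, which held none of these motifs. GGGCGG was present in 4 of the 10 windows, the *Igfbp2* window shown and those of *Igf1r*, *Igf2r* and *Irs2*. None of the 10 held TTCNNNGAA, the palindrome that STAT factors are known to bind, which 8.30% of all windows held. These are matches of letters, and say nothing of whether a factor binds there or elsewhere at the gene.

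Levels ranged from 0.157 to 646 FPKM, as the plot of levels by library shows. In E11 CTL, *Igfbp4* (210 FPKM) and *Igfbp2* (202 FPKM) led, far above *Igf2r* (28.9), *Igf1* (18.0), *Igfbp5* (14.6), *Insr* (10.5), *Igf1r* (9.97), *Igfbp3* (9.43), *Irs2* (6.87) and *Igfbp6* (4.99). In E14 CTL, *Igfbp2* (646 FPKM) was followed by *Igfbp3* (82.1), *Igfbp4* (26.3), *Igf2r* (12.2), *Insr* (10.4), *Irs2* (6.33), *Igfbp5* (5.22), *Igf1r* (4.57), *Igf1* (0.405) and *Igfbp6* (0.157). Without replicates, neighbours in these orders cannot be ranked beyond their spread. *Igf1* varied most over the libraries, by 44.5-fold between the highest and the lowest, and *Insr* least, by 1.33-fold.

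**Figure D1:**
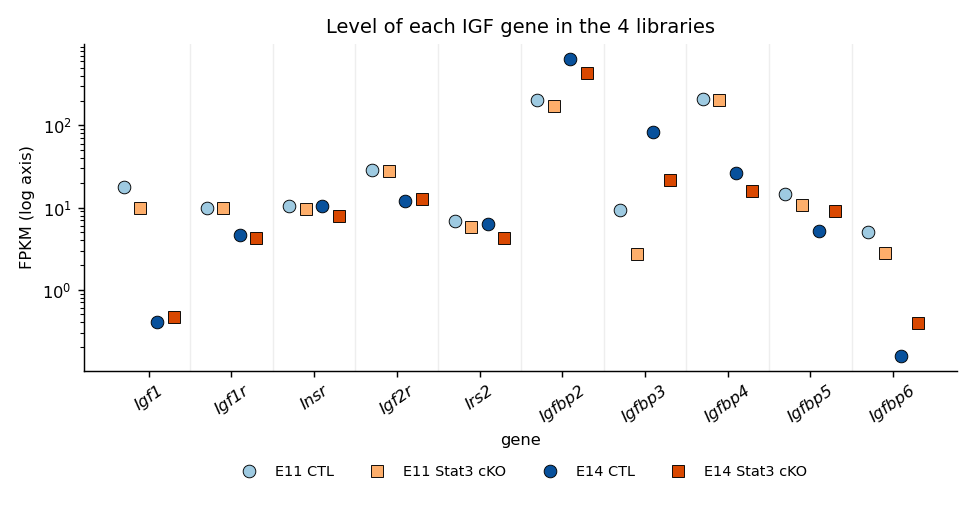
FPKM (log axis) of the 10 IGF genes (horizontal axis) in the 4 libraries, 1 point per library, circles for CTL and squares for *Stat3* cKO, pale for E11 and dark for E14. *Igfbp2* and *Igfbp3* sit higher at E14 in both genotypes, *Igf1*, *Igfbp4* and *Igfbp6* sit far lower, and *Insr* stays between 7.93 and 10.5 FPKM.

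The first comparison was between genotypes, and *Igfbp3* stood apart in it. This gene encodes a major carrier of IGFs in serum, which also acts locally in tissues. It had 9.43 FPKM (CTL) and 2.74 (*Stat3* cKO) at E11, and 82.1 (CTL) and 21.8 (*Stat3* cKO) at E14. Its level was thus lower in *Stat3* cKO at both stages, 3.44-fold at E11 (log2 ratio -1.78) and 3.77-fold at E14 (log2 ratio -1.91), while it was higher at E14 than at E11 in both genotypes. At E11 a lower ratio was found in 39 of 12430 genes with a ratio, and at E14 in 31 of 12430. Even the E11 *Stat3* cKO value rests on about 180 to 254 fragments, estimated from the shortest and longest transcript. *Stat3* itself was 1.10-fold lower at E11, over the whole gene.

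**Figure D2:**
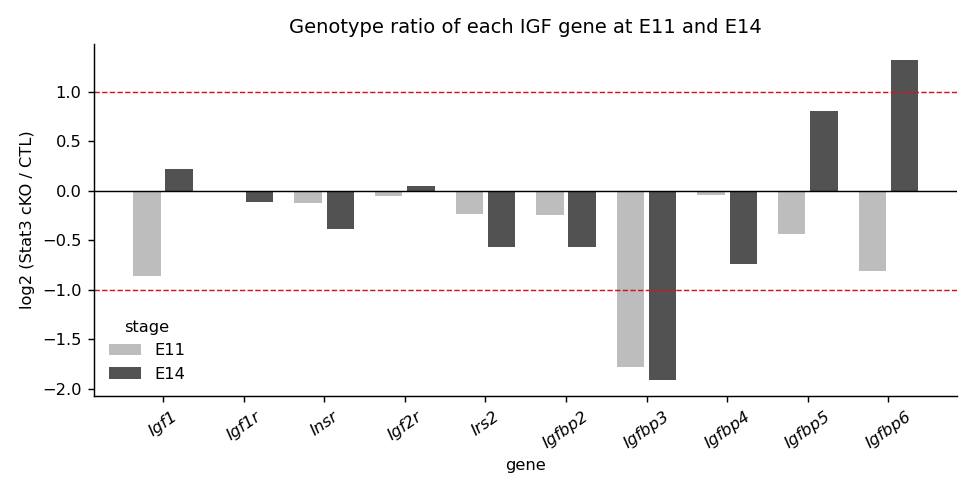
Log2 ratio of *Stat3* cKO to CTL (vertical axis) for the 10 IGF genes (horizontal axis), pale bars for E11 and dark bars for E14, each from 1 library per group, with dashed lines at 2-fold. *Igfbp3* passes 2-fold downward at both stages, at -1.78 and -1.91, whereas *Igfbp5*, *Igfbp6* and *Igf1* lie below 0 at E11 and above 0 at E14.

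At E11, *Igfbp3* was the only member at least 2-fold lower in *Stat3* cKO, 1 of 10, beside 1.12% of the genes analysed, and 0 of 10 were at least 2-fold higher, beside 0.209%. All 10 log2 ratios were below 0, with a median of -0.24, whereas the median over all genes was 0.059 and 4753 of 12430 were below 0. Several members lay close to 0. *Igf1r* had a log2 ratio of -0.015, *Igfbp4* of -0.046 and *Igf2r* of -0.051. The next largest differences were those of *Igf1*, from 18.0 FPKM in CTL to 9.93 in *Stat3* cKO, and *Igfbp6*, from 4.99 to 2.84, with log2 ratios of -0.86 and -0.82, short of 2-fold. In the same pair of libraries the microglia markers summed to 12.5 FPKM (CTL) and 8.34 (*Stat3* cKO), and the mesenchymal markers to 1395 and 1253. The lower mesenchymal sum was not shared by the whole list. Of its 8 analysed markers, 4 were higher and 4 lower in the *Stat3* cKO library. Half-way through these 8 log2 ratios, the median stood at -0.0085. The part of microglia and mesenchymal cells in the *Igf1* and *Igfbp6* ratios was not tested. In bulk samples, fewer cells of a type and less RNA per cell cannot be told apart.

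At E14, 1 of 10 members was at least 2-fold lower in *Stat3* cKO, again *Igfbp3*, beside 1.69% of the genes analysed. The only member at least 2-fold higher was *Igfbp6*, beside 1.85%. With upper-quartile scaling of the libraries the calls over all genes split into 286 higher and 162 lower, against 230 and 210 as deposited, while the member calls stayed at 1 each. The median log2 ratio of the members was -0.25, beside -0.079 over all genes, and 6 of 10 were below 0, beside 7475 of 12430 over all genes. *Igfbp2*, the most abundant member, stood at 646 FPKM (CTL) and 436 (*Stat3* cKO), a log2 ratio of -0.57. *Igfbp4*, whose product restrains IGF action until it is cleaved by the protease PAPP-A, had 26.3 and 15.7 FPKM, a log2 ratio of -0.75. The 3 binding proteins with the highest E14 levels were thus all lower in the *Stat3* cKO library, although *Igfbp2* and *Igfbp4* did not reach 2-fold. In the same pair of libraries the astrocyte markers summed to 84.6 FPKM (CTL) and 149 (*Stat3* cKO), of which *Aldh1l1* made up 78.6 and 136, while *Gfap* went the other way, at 0.901 and 0.186. Neuron markers summed to 998 and 852, with all 6 lower in *Stat3* cKO, and 7 of the 8 neural progenitor markers were higher. The mesenchymal markers summed to 17.2 and 11.3, the choroid plexus markers to 121 and 84.6 and the oligodendrocyte lineage markers to 555 and 527. Within these sums *Pdgfrb* of the mesenchymal list was 2.54-fold higher in *Stat3* cKO, and of the oligodendrocyte lineage list *Sox10* was 3.05-fold and *Pdgfra* 1.70-fold higher, while *Olig1* and *Olig2* were lower. Their part in the E14 ratios was not tested.

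The 2 remaining binding proteins went the other way at E14. *Igfbp5*, which encodes a binding protein that attaches to extracellular matrix, had 14.6 FPKM (CTL) and 10.8 (*Stat3* cKO) at E11, and 5.22 (CTL) and 9.11 (*Stat3* cKO) at E14. It was lowest in E14 CTL, and its genotype log2 ratio was -0.44 at E11 and 0.80 at E14. *Igfbp6*, whose product prefers IGF2 over IGF1, had 4.99, 2.84, 0.157 and 0.393 FPKM in the same order. Its E14 log2 ratio of 1.32 rests on about 7.24 fragments in CTL and 19.8 in *Stat3* cKO, and with a pseudocount of 0.1 it was 0.94, below 2-fold.

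At E14 the sex-linked transcripts and the genotype divided the pair of libraries alike. The E14 differences in *Igfbp3*, the other members and the pathway genes below therefore cannot be told apart from a difference in the sex of the embryos. The same holds for the stage comparison within *Stat3* cKO. In the E11 libraries *Ddx3y* was at 0 in both and *Xist* at 46.9 and 39.7 FPKM, and there *Igfbp3* was 3.44-fold lower in *Stat3* cKO.

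Of the 4 receptor and substrate genes, 0 reached 2-fold between genotypes at either stage, beside 1.33% of all genes at E11 and 3.54% at E14, so the count does not set them apart from other genes. *Igf1r* had 9.97 FPKM (CTL) and 9.87 (*Stat3* cKO) at E11, and 4.57 (CTL) and 4.23 (*Stat3* cKO) at E14, and its genotype log2 ratio was -0.11 at E14. *Igf2r* had 28.9, 27.9, 12.2 and 12.6 FPKM in the same order, with an E14 log2 ratio of 0.050. Levels of these receptors followed stage, with little difference between the genotypes. *Insr* had 10.5, 9.64, 10.4 and 7.93 FPKM, and *Irs2* had 6.87, 5.84, 6.33 and 4.26. Both were lowest in E14 *Stat3* cKO, with E14 log2 ratios of -0.38 and -0.57.

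The second comparison was between stages, and most members differed in it. In CTL, 6 of 10 members fell at least 2-fold from E11 to E14, beside 12.5% of the genes analysed, and 2 of 10 rose, beside 14.6%. In *Stat3* cKO, 5 of 10 fell, beside 11.7%, and 2 of 10 rose, beside 10.1%. In either direction this was 8 of 10 members in CTL, beside 27.1%, and 7 of 10 in *Stat3* cKO, beside 21.8%. The same 5 genes fell in both genotypes, *Igf1*, *Igf1r*, *Igf2r*, *Igfbp4* and *Igfbp6*, and *Igfbp5* fell in CTL. With a pseudocount of 1 the CTL log2 ratio of *Igf1r* was -0.98, just below 2-fold, which left 5 of 10 fallen in CTL. The median log2 ratio of the members was -1.19 in CTL and -0.80 in *Stat3* cKO, beside 0.21 and 0.058 over all genes. Centring or scaling the libraries lowered every CTL stage ratio by 0.21 or 0.24, which changed neither a sign nor a call among the members. Over all genes it turned a split of 1820 risen and 1548 fallen in CTL into 1210 and 1901 by centring or 1145 and 1952 by upper-quartile scaling. The stage and genotype comparisons share their libraries and are not independent of each other.

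**Figure D3:**
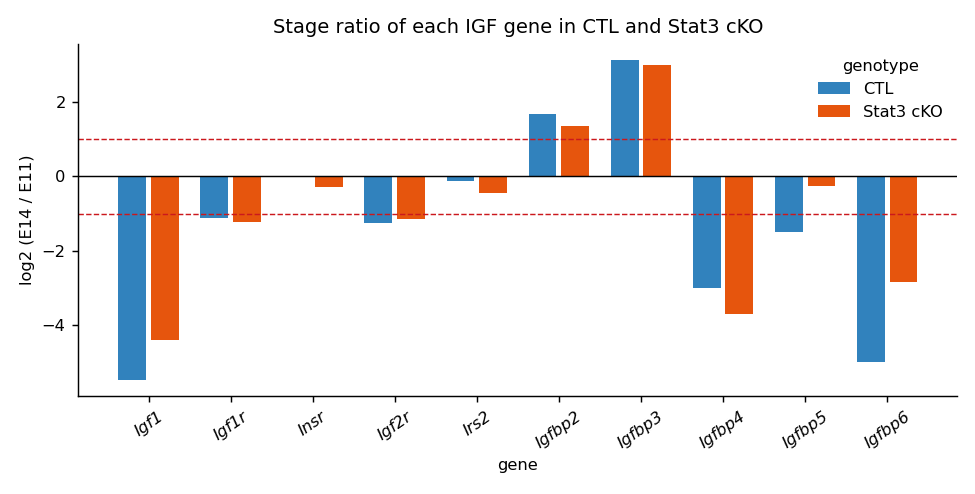
Log2 ratio of E14 to E11 (vertical axis) for the 10 IGF genes (horizontal axis), blue bars for CTL and orange bars for *Stat3* cKO, each from 1 library per group, with dashed lines at 2-fold. *Igfbp2* and *Igfbp3* are above the upper line in both genotypes, and *Igfbp5* is below the lower line in CTL at -1.49 and near 0 in *Stat3* cKO at -0.25.

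Without a pseudocount the ligand gene *Igf1* fell most among the members. It fell 44.5-fold in CTL, from 18.0 to 0.405 FPKM, and 21.0-fold in *Stat3* cKO, from 9.93 to 0.472. The other IGF ligand, *Igf2*, which is no member and was chosen after its values were seen, had 60.0 FPKM (CTL) and 55.8 (*Stat3* cKO) at E11, and 0.783 (CTL) and 0.396 (*Stat3* cKO) at E14. This was a larger fall, 76.6-fold in CTL and 141-fold in *Stat3* cKO. Both growth factor transcripts were thus below 1 FPKM in the E14 libraries. *Igfbp6* fell 31.7-fold in CTL and 7.22-fold in *Stat3* cKO. The size of these falls is uncertain, since the E14 values rest on few fragments, about 10.9 to 118 for *Igf1* and 7.24 for *Igfbp6* in CTL. With a pseudocount of 1 the CTL log2 ratio moved from -5.48 to -3.76 for *Igf1* and from -4.99 to -2.37 for *Igfbp6*, and in *Stat3* cKO that of *Igf1* was -2.89, a smaller fall than the -3.61 of *Igfbp4*. *Igfbp4* fell 7.97-fold in CTL, from 210 to 26.3 FPKM, and 12.9-fold in *Stat3* cKO, from 203 to 15.7.

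Mesenchymal markers fell between the same libraries, by 81.3-fold in CTL and 111-fold in *Stat3* cKO in their summed level, and all 8 markers of that list that were analysed were at least 2-fold lower at E14 in CTL. Microglia markers fell 9.25-fold in CTL and 6.42-fold in *Stat3* cKO, and endothelial markers 3.78-fold and 2.46-fold, in their summed levels. Not every marker fell. *P2ry12* of the microglia list rose 3.13-fold in CTL and 2.44-fold in *Stat3* cKO. Of the endothelial list *Cldn5* rose 1.08-fold and 1.83-fold, and *Esam* and *Flt1* rose 1.45-fold and 1.34-fold in *Stat3* cKO only. The part of these cell types in the fall of *Igf1*, *Igf2*, *Igfbp4* and *Igfbp6* was not tested. The summed neural progenitor markers were higher at E14, by 4.83-fold in CTL and 4.74-fold in *Stat3* cKO. Most of the E14 sum was *Fabp7*, at 516 FPKM in E11 CTL and 5245 in E14 CTL, and 2 of the 8 markers, *Pax6* and *Prom1*, were lower at E14 in CTL, with a list median log2 ratio of 0.78. Choroid plexus markers summed to 4.88 FPKM in E11 CTL and 121 in E14 CTL, of which *Ttr* made up 118. In CTL *Aqp1* and *Kcnj13* of this list went the other way, from 2.55 to 0.937 and from 0.459 to 0.189 FPKM. *Folr1* and *Clic6* rose 1.24-fold and 1.22-fold.

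**Figure D4:**
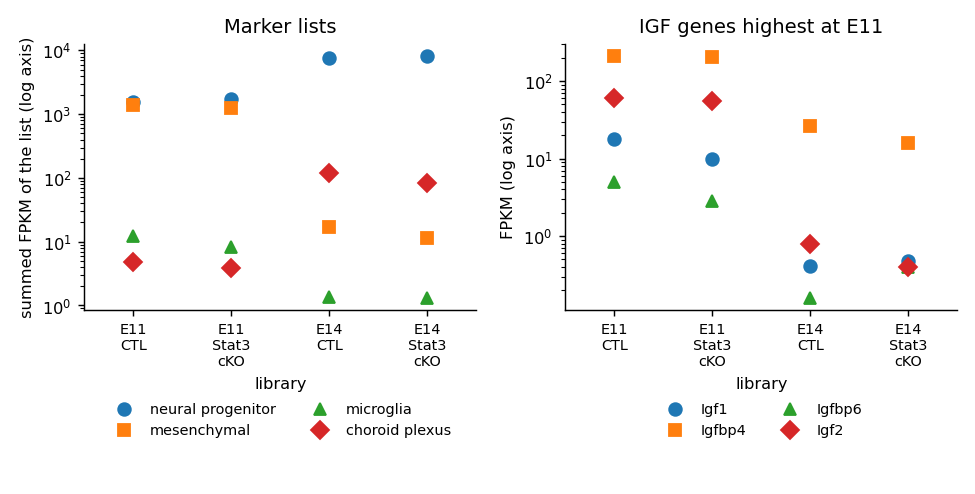
Left, summed FPKM (log axis) of 4 marker lists in each library (horizontal axis). Right, FPKM (log axis) of 4 IGF genes in the same libraries. The mesenchymal sum goes from 1395 to 17.2 FPKM in CTL. *Igf1*, *Igf2*, *Igfbp4* and *Igfbp6* are lower in both E14 libraries than in both E11 libraries (in E14 *Stat3* cKO the *Igf2* point covers that of *Igfbp6*). These 4 genes were drawn because they were highest at E11, so their fall here is no separate result. *Igf1r* and *Igf2r*, which also fell, are not drawn.

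Among receptors, *Igf1r* fell 2.18-fold in CTL and 2.33-fold in *Stat3* cKO, and *Igf2r* 2.37-fold and 2.21-fold. For *Insr* the log2 ratio was -0.023 (CTL) and -0.28 (*Stat3* cKO), and for *Irs2* -0.12 and -0.45. The level of *Igf1r* relative to *Insr* within a library, a ratio that no scaling between libraries touches, was 0.948 (CTL) and 1.02 (*Stat3* cKO) at E11, and 0.442 (CTL) and 0.534 (*Stat3* cKO) at E14. The insulin receptor transcript thus matched that of the IGF1 receptor at E11 and exceeded it at E14. *Igf2r* stayed at 2.66 to 2.97 times the level of *Igf1r* in all 4 libraries. The locus listed for *Igf2r* is shared with *Airn*, a non-coding RNA antisense to it, at 1.34 to 3.89 FPKM. Strand use is not given in the sources used here, so reads of the overlapping parts cannot be told apart.

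*Igfbp2* and *Igfbp3* were the members that rose. *Igfbp2*, a binding protein long known from fetal brain, rose 3.20-fold in CTL, from 202 to 646 FPKM, and 2.56-fold in *Stat3* cKO, from 170 to 436. *Igfbp3* rose 8.70-fold in CTL and 7.94-fold in *Stat3* cKO, and its level was lower in *Stat3* cKO at each stage. *Igfbp5* fell 2.81-fold in CTL, from 14.6 to 5.22 FPKM, and had 10.8 and 9.11 FPKM in *Stat3* cKO, a log2 ratio of -0.25. Whether this stage ratio differs between genotypes was not tested.

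The makeup of the binding protein transcripts differed between stages. Of the summed FPKM of the 5 genes, *Igfbp2* made up 45.8% in E11 CTL and 43.7% in E11 *Stat3* cKO, and *Igfbp4* 47.6% and 52.1%. At E14, *Igfbp2* made up 85.0% in CTL and 90.3% in *Stat3* cKO, and *Igfbp4* 3.47% and 3.25%. *Igfbp2* was thus about level with *Igfbp4* at E11, and 24.5 times as abundant in E14 CTL and 27.7 times in E14 *Stat3* cKO. The share of *Igfbp3* was 2.14% (CTL) and 0.704% (*Stat3* cKO) at E11, and 10.8% (CTL) and 4.51% (*Stat3* cKO) at E14. In the latter library the sum was 483 FPKM against 759 in E14 CTL, and it had been 441 in E11 CTL and 390 in E11 *Stat3* cKO. These shares are of transcript levels per length, and secreted protein was not measured here.

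**Figure D5:**
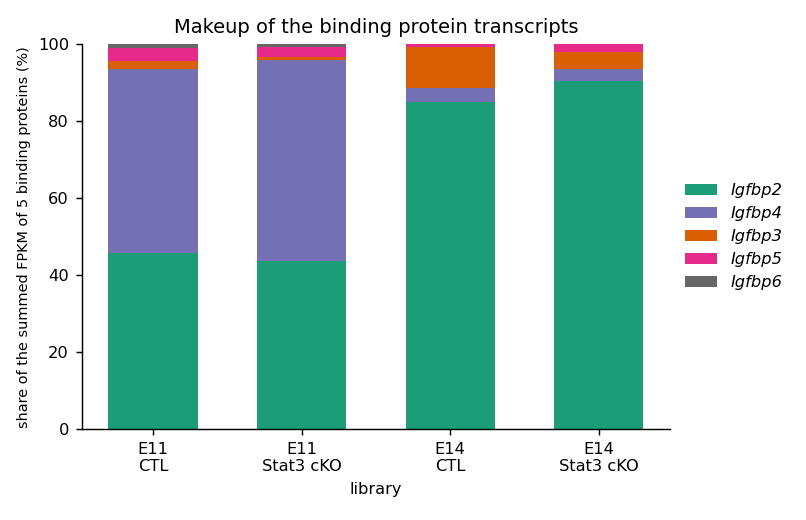
Share (%) of each of 5 binding protein genes in their summed FPKM (vertical axis from 0 to 100), 1 bar per library (horizontal axis). *Igfbp2* and *Igfbp4* split most of the sum at E11, *Igfbp2* takes 85.0% and 90.3% at E14, and the *Igfbp3* part is smaller in *Stat3* cKO at each stage.

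Some binding protein genes are neighbours. As listed, *Igfbp2* (chr1:72871053-72899045) ends 5592 bases before *Igfbp5* (chr1:72904638-72921439), and *Igfbp2* rose in CTL while *Igfbp5* fell. *Igfbp3* (chr11:7106095-7113926) lies 3545 bases after *Igfbp1*, a gene that was at 0 in E14 CTL and at most at 0.0581 FPKM in the other libraries. The other binding protein genes are listed at chr11:98902573-98913957 (*Igfbp4*) and chr15:101974616-101979943 (*Igfbp6*). *Igf1* is listed at chr10:87321800-87399792, *Igf1r* at chr7:75097142-75378553, *Insr* at chr8:3150921-3279617, *Igf2r* at chr17:12875271-13061009 and *Irs2* at chr8:10986963-11054541. A listed span can hold more than the named gene. *Airn* has the same listed span as *Igf2r*, which *Mas1* also overlaps, and *9530052E02Rik* overlaps the span of *Irs2*. The listed positions are in the build of the files, which is not named with the values, and 1 of 10 members lies within 1000 bases of its GRCm38 position.

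Genes most like *Igfbp3* over the 4 libraries were sought by Euclidean distance of centred log2 FPKM among 9190 other genes that averaged 5 FPKM or more and had no value of 0. The nearest was *Anxa3*, an annexin, at a distance of 0.45, with 7.09, 2.85, 89.0 and 24.0 FPKM in CTL and *Stat3* cKO at E11 and then at E14. *Tagln2*, which encodes an actin-associated transgelin, followed at 1.03, with 13.5, 10.1, 139 and 45.4 FPKM. *Csgalnact1*, an enzyme of chondroitin sulfate synthesis, was at 1.04, with 1.41, 0.398, 15.1 and 7.76 FPKM. With 4 libraries, likeness of this kind describes these values and no more.

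The wider pathway was read from 3 lists. Of 10 other ligands, binding proteins and their modifiers, 7 were analysed. *Htra1*, a secreted protease that can cleave binding proteins, was the only one at least 2-fold different between genotypes, with 1.51 FPKM (CTL) and 0.653 (*Stat3* cKO) at E11, and 4.87 (CTL) and 11.4 (*Stat3* cKO) at E14. It was lower in *Stat3* cKO at E11 (log2 ratio -1.21), as were 1.12% of all genes by at least 2-fold, and higher at E14 (log2 ratio 1.22), as were 1.85%. With a pseudocount of 1 its E11 log2 ratio was -0.60, below 2-fold. From E11 to E14, 4 of the 7 fell at least 2-fold in CTL, beside 12.5% of all genes, and 5 of 7 in *Stat3* cKO, beside 11.7%. *Htra1* rose in both, beside 14.6% and 10.1%. The median log2 ratio of the 7 was -0.29 between genotypes at E11, -0.37 at E14, -2.16 between stages in CTL and -1.16 in *Stat3* cKO. Among those that fell was *Pappa*, which encodes PAPP-A and was chosen after its values were seen, from 5.11 to 0.0763 FPKM in CTL and from 4.16 to 0.115 in *Stat3* cKO. The summed mesenchymal markers fell 81.3-fold in CTL and 111-fold in *Stat3* cKO between the same libraries. Their part in the fall of this list was not tested.

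Of 31 signalling genes downstream of the receptors, 30 were analysed, and 0 of 30 differed at least 2-fold between genotypes at either stage, beside 1.33% of all genes at E11 and 3.54% at E14. Their median log2 ratio was 0.083 at E11 and -0.0041 at E14. *Irs1*, the other main substrate, chosen after its values were seen, had 17.1 FPKM (CTL) and 18.8 (*Stat3* cKO) at E11, and 8.11 (CTL) and 4.62 (*Stat3* cKO) at E14. Both substrate genes thus had their lowest level in E14 *Stat3* cKO. From E11 to E14, 2 of the 30 rose and 4 fell in CTL (14.6% and 12.5% of all genes), and 2 rose and 5 fell in *Stat3* cKO (10.1% and 11.7%), with medians of -0.035 and -0.18. These shares are near those of all genes or below them.

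FOXO factors are held out of the nucleus when insulin or IGF signalling is active, and the third list held 12 genes they are known to raise. By western blot the study reported AKT activation in *Stat3* cKO progenitors, at a stage its caption does not give. FOXO activity was not measured here. At E14, 2 of 12 reached 2-fold upward in *Stat3* cKO, beside 1.85% of all genes, 0 were at least 2-fold lower, beside 1.69%, and the median log2 ratio was 0.38, beside -0.079 over all genes. The log2 ratio was above 0 for 11 of the 12, beside 4955 of 12430 over all genes, and below it for *Sod2* (-0.31), named after its values were seen. The list excluded the 10 members, so *Irs2* and *Insr*, with E14 log2 ratios of -0.57 and -0.38, could not enter it. *Sesn3*, a stress-induced regulator of mTORC1, had 19.1 FPKM (CTL) and 29.7 (*Stat3* cKO) at E11, and 13.4 (CTL) and 32.1 (*Stat3* cKO) at E14. *Pik3ip1*, an inhibitor of PI3 kinase, had 5.82, 5.61, 8.49 and 20.3 FPKM in the same order. Cell type markers also differed between the E14 libraries, as given above, and their part in the E14 ratios of this list was not tested. At E11, 0 of 12 differed at least 2-fold, beside 1.33% of all genes, and the median was 0.15, beside 0.059. From E11 to E14, 2 of 12 rose and 4 fell in CTL (14.6% and 12.5% of all genes), and 2 rose and 3 fell in *Stat3* cKO (10.1% and 11.7%), with medians of -0.030 and 0.095.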

How the data were processed

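RNA-seq values of 4 libraries of cultured neural progenitors were used, 1 each of CTL and *Stat3* cKO at E11 and at E14. The authors checked reads with FastQC, used the TopHat and Cufflinks workflow and deposited FPKM values, and the submitters' processing notes name Bowtie 0.12.2 and the builds mm8 and mm9 without their roles. Other scaling across libraries is not given in the sources used here. Groups came from the sample titles.

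Ratios were plain ratios of deposited FPKM values over entries with a mean of at least 1 FPKM, without a pseudocount. An entry with 0 in either library got no ratio, and a gene was called at 2-fold. With 1 library per group no test was made, also not of genotype over the stages in an additive model, which would leave 1 residual degree of freedom. Depth adds counting error that FPKM values do not carry. Fragment numbers were estimated from the smallest values and GENCODE M21 transcript lengths of genes with a single basic transcript, and are approximate, since the estimate came out several percent low on simulated data. The calls were also tested on simulated data. The members and lists were chosen with earlier results of these data known. Named are the 10 members, *Stat3*, pathway list genes at least 2-fold different between genotypes at E11 or E14, the 3 genes nearest in pattern to the member with the largest E14 genotype ratio, and genes marked as chosen later. Marker, sex-linked, overlapping and neighbouring genes are given as context, and the single ones were chosen with their values in view. Marker lists covered neural progenitors, neurons, astrocytes, oligodendrocyte lineage, microglia, endothelial, mesenchymal and choroid plexus cells. Neuron markers summed to 675, 708, 998 and 852 FPKM in the 4 libraries in the order above, astrocyte markers to 10.6, 8.60, 84.6 and 149, and oligodendrocyte lineage markers to 66.8, 87.2, 555 and 527. No erythroid marker was listed under its own symbol. Promoter sequences are from RefSeq, GRCm38.p6. Alternatives were pseudocounts of 0.1 and 1, centring on the median, upper-quartile scaling, no minimum or a minimum of 5 FPKM, and a threshold of 1.5-fold. Python 3.11.15, numpy 2.4.6, pandas 2.3.3 and matplotlib 3.10.9 were used.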

Additional observations from a re-analysis of the deposited data

Results flagged for a closer look

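Several genes had *Stat3* cKO to CTL ratios on opposite sides of 1 at E11 and E14. With 1 library per group the difference between stages was not tested. The difference of the log2 ratios, E14 minus E11, was 2.13 for *Igfbp6*, 1.24 for *Igfbp5*, 1.08 for *Igf1* and 0.10 for *Igf2r* among the members. Outside them only *Htra1*, *Sesn3*, *Pik3ip1*, *Stat3*, *Igf2* and *Irs1* were screened, and it was 2.44 for *Htra1*, 1.31 for *Pik3ip1* and -0.95 for *Irs1*. Other pathway list genes, not screened, also changed side, among them *Gadd45a* (1.38), *Bcl6* (1.30) and *Igfbp7* (1.15). The value for *Igfbp6* rests on about 7.24 fragments in E14 CTL, and that for *Igf2r* comes from log2 ratios of -0.051 and 0.050.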

How the results depend on the processing

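Of 56 counts of members under the alternatives, 50 were within 1.5 times the value reported and 6 were not. The count of members higher in *Stat3* cKO at E14, reported as 1 (*Igfbp6*), was 0 with a pseudocount of 0.1, 0 with a pseudocount of 1 and 0 with a minimum mean of 5 FPKM, which leaves *Igfbp6* out. With a threshold of 1.5-fold, members higher at E14 numbered 2 and members lower 2, in place of 1 each, and members lower at E11 numbered 3 in place of 1. Over all genes this threshold gave 724 higher and 953 lower at E14 and 455 lower at E11, of 12430. Over 16 genes, log2 ratios under 6 alternatives gave 376 values with 0 changes of sign, and 5 crossed 2-fold. With a pseudocount of 1, these were *Igfbp6* at E14 (0.27), *Htra1* at E11 (-0.60) and the CTL stage ratios of *Igf1r* (-0.98) and *Irs1* (-0.99), and with a pseudocount of 0.1 *Igfbp6* at E14 (0.94). A pseudocount by construction draws ratios of low values towards 0. The labels give no replicate numbers, and a fit of genotype with stage as a block was not made. No library was left out, since its group would then be empty. Depth limits *Igfbp6* most, and sampling of embryos cannot be assessed.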
